A study of Homo sapiens with 4 samples.

Results

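The genes described here encode the core machinery that makes miRNAs and the Argonaute proteins that carry them. They are DROSHA, DGCR8, XPO5, DICER1, TARBP2, PRKRA, AGO1, AGO2, AGO3 and AGO4, taken by gene symbol from the table of small RNA reads, and all 10 were found among its 26485 symbols. The libraries were made from total RNA of HCT116 Drosha k.o. cells. HCT116 is a line from a human colon carcinoma, and the Drosha k.o. cells are 1 clone of it in which CRISPR/Cas9 had inactivated both DROSHA alleles, so that every sample shares the knockout and the clone. CD95L cells were infected with the lentivirus pLenti-CD95L (2 libraries) and vector cells with empty pLenti (2 libraries). The study's methods name, for this cell line, a CD95L mutant that cannot bind its receptor and has an early stop codon. The sample titles say only pLenti-FasL, where FasL (Fas ligand) is another name of CD95L. Both groups were selected with 3 µg/mL puromycin, and RNA was taken at 50 h, counted from plating in the methods and in a label and from puromycin selection in another label. Infected cells had been pooled before they were expanded. At which step the duplicates were separated is not given in the sources used here, so that part of the spread between libraries may be technical. The titles of both vector libraries carry a mark (# 2) that the CD95L libraries lack, and a batch with this pattern cannot be told apart from the group.

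In the canonical pathway, Drosha and its partner DGCR8 form the Microprocessor, which cuts hairpins out of primary miRNA transcripts in the nucleus. Exportin 5 carries the resulting precursors to the cytoplasm, Dicer cuts them into short duplexes with the help of TRBP (TARBP2) or PACT (PRKRA), and an Argonaute protein keeps a strand of the duplex as guide within the RNA-induced silencing complex (RISC). Of the human Argonautes, AGO2 is the one known for efficient slicing of matched targets. Cells without Drosha lack most canonical miRNAs and still hold Argonaute proteins, which makes this machinery the setting in which sRNAs from CD95L mRNA were studied.

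A small RNA library does not measure mRNA directly. What is counted for these protein coding genes are short fragments that fall on their exons, given in CPM, reads per 1000000 reads assigned to genes. The libraries held 22488145 to 25163566 gene reads, of which the 10 genes took 2798 and 2886 reads in CD95L cells and 3470 and 3008 reads in vector cells. A count of 0 allows up to 0.119 to 0.133 CPM (3 reads in a library). The exact 95% Poisson intervals given below describe counting error alone. They can be too narrow even for that, because reads copied by PCR were counted like independent ones. The transgene itself, FASLG, stood at 94.9 and 90.5 CPM in CD95L cells, against 1.16 and 2.94 CPM in vector cells. MIR27B, a Drosha-dependent miRNA named here with its values known, had 8.34 and 7.69 CPM in CD95L cells, against 291 and 54.4 CPM in vector cells, with vector replicate 1 far above the other libraries. It was called by edgeR (adjusted p = 3.07e-06) and DESeq2 (adjusted p = 0.0192) but not by limma (adjusted p = 0.175). All 10 markers of epithelium and colon had reads in every library (summed level 135 and 135 CPM in CD95L cells, 145 and 144 CPM in vector cells), with the keratin KRT18 at 52.8 and 52.8 CPM in CD95L cells and at 61.5 and 56.4 CPM in vector cells. The defining epithelial gene EPCAM was low (2.66 and 2.89 CPM in CD95L cells, 2.33 and 3.26 CPM in vector cells). The 5 fibroblast markers summed to 24.4 and 26.9 CPM in CD95L cells and 25.3 and 16.9 CPM in vector cells, with 1 of them, LUM, at 0 in vector replicate 1. The 5 leukocyte markers summed to 12.8 and 18.6 CPM in CD95L cells and 12.2 and 12.5 CPM in vector cells, and the 3 endothelial markers to 42.5 and 64.3 CPM in CD95L cells and 57.7 and 51.1 CPM in vector cells. Most of the endothelial sum came from VWF (39.96 and 61.3 CPM in CD95L cells, 54.0 and 48.4 CPM in vector cells). No marker was called in the comparison of the groups (limma), and the part of other RNA sources in the results was not tested.

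The DGCR8 transcript itself holds miRNA hairpins, and their sequences are shown because they decide which reads a DGCR8 count can contain. MIR3618 (chr22:20085746-20085833, plus strand of GRCh38) lies in exon 2 of the DGCR8 MANE Select transcript, upstream of the start codon. MIR1306 (chr22:20086058-20086142, plus strand) lies in the same exon, with all 85 of its bases inside the coding sequence. Cleavage of DGCR8 mRNA at such a hairpin by the Microprocessor is a known feedback by which Drosha limits its own partner. The mature sequences follow, from RefSeq (GRCh38.p14), 5′ to 3′, with the seed (bases 2 to 8) in capitals.
hsa-miR-3618: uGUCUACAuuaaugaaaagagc
hsa-miR-1306-5p: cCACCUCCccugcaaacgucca
hsa-miR-1306-3p: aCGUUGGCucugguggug
The 3 seeds differ from each other. MIR3618 and MIR1306 were listed at 0 CPM in all 4 libraries. Since each hairpin overlaps a DGCR8 exon along its whole length, HTSeq, the read counter, would by its usual rules assign such reads to neither gene. The zeros therefore give no level for these miRNAs, and the DGCR8 count may lack reads from the hairpins. MIR3173, which lies between the exons of DICER1 in GENCODE v44, was likewise at 0 CPM in all 4 libraries.

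None of the 10 genes passed the test between CD95L and vector cells. With limma on log2(CPM + 1), 0 of 10 passed an adjusted p of 0.05, where 0.00620% of all 16127 genes tested did (1 gene, FASLG). At an unadjusted p of 0.05 it was again 0 of 10, against 5.38% of all genes. On the reads recovered from CPM, edgeR called 0 of 10 (0.366% of 19686 genes) and DESeq2 called 0 of 10 (0.241% of 20727 genes), and neither had a member at an unadjusted p under 0.05, where edgeR had 6.13% and DESeq2 3.65% of all genes. Of the limma differences 6 were negative and 4 positive, from -0.40 (TARBP2) to 0.36 (AGO4), with a median of -0.05 beside -0.01 over all genes tested. Over all genes tested 8190 differences were negative and 7937 positive. Among the 10 genes, 2 had both CD95L libraries below both vector libraries (DGCR8 and DICER1), a pattern that 19.0% of all genes tested showed, and 1 had both above (AGO4), as did 16.0% of all genes. The 95% intervals of the differences reached down to -1.01 (TARBP2) and up to 0.95 (AGO4) on this log2 scale, before adjustment over all genes. Changes of moderate size were therefore not detectable in this design. Larger ones could be missed too, as MIR27B, with unlike vector libraries, had a difference of -3.82 and did not pass (limma, adjusted p = 0.175). The log2(CPM + 1) scale also understates the change of low genes.

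**Figure D1:**
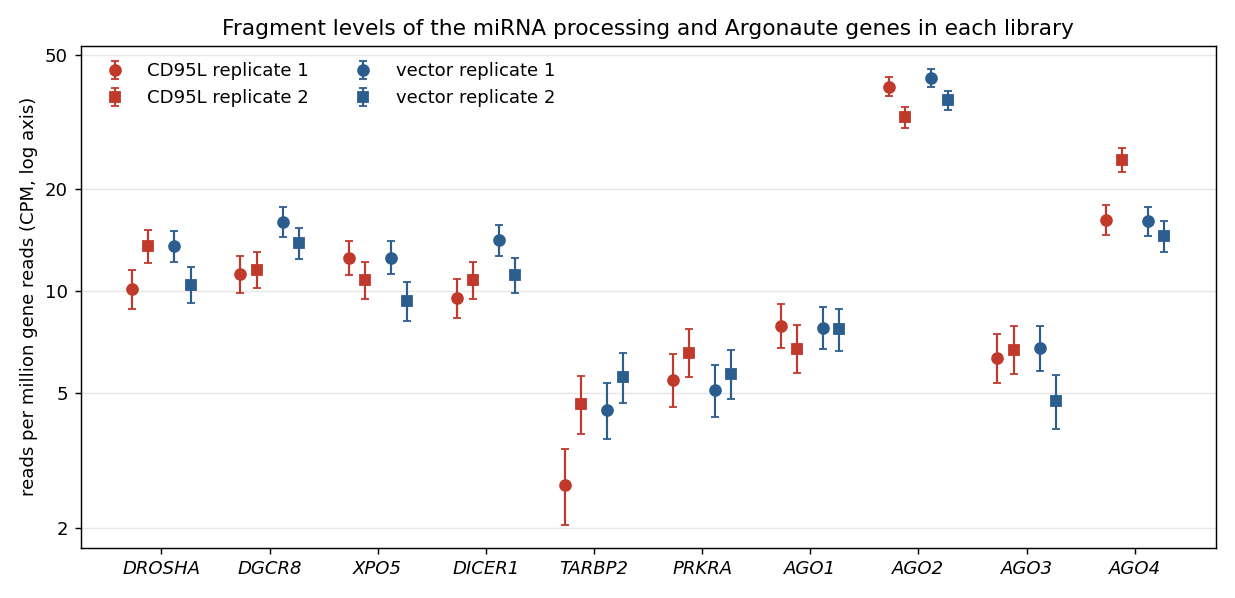
Level in CPM (log axis) of each gene in the 4 libraries, with CD95L libraries in red left of vector libraries in blue, circles for replicate 1 and squares for replicate 2; bars are exact 95% Poisson intervals of the read count. AGO2 reached 32.6 to 42.7 CPM, and AGO4 in CD95L replicate 2 (24.4 CPM) stood above its other libraries (14.5 to 16.2 CPM).

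Fragments of the Microprocessor mRNAs were present in all libraries. DROSHA (chr5:31400494-31532196, minus strand), the nuclear RNase III, had 10.1 and 13.6 CPM in CD95L cells, against 13.6 and 10.4 CPM in vector cells. The groups covered the same range, and within each of them the intervals of the replicates did not overlap (8.87 to 11.5 and 12.1 to 15.2 CPM in CD95L cells, 12.2 to 15.1 and 9.19 to 11.8 CPM in vector cells). Libraries of the same group thus differed by more than these intervals cover. Of the 5440 tested genes with a mean CPM within 2-fold of that of DROSHA, 30.1% had a gap at least as large between the CD95L libraries. Between the vector libraries it was 25.2%. The difference was -0.02 ± 0.26 (SE, limma, adjusted p = 0.998), with an interval from -0.60 to 0.56. These reads do not check the knockout, which all libraries share, since where they fell within DROSHA was not analysed here. DGCR8 (chr22:20080221-20111877, plus strand), the double-stranded RNA binding partner of Drosha, had 11.2 and 11.6 CPM in CD95L cells, against 16.0 and 13.8 CPM in vector cells. Both CD95L libraries lay below both vector libraries, and the counting intervals of the replicates overlapped in each group. The ratio of the means was 0.764, and the difference of -0.36 ± 0.24 (SE, interval -0.89 to 0.18) did not pass the test (limma, adjusted p = 0.927; edgeR, adjusted p = 0.89; DESeq2, adjusted p = 0.999). It was -0.26 without vector replicate 1.

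Of the genes of export and dicing, XPO5 overlapped between the groups and DICER1 narrowly did not. XPO5 (chr6:43522334-43576038, minus strand), which encodes the export receptor of miRNA precursors, had 12.5 and 10.8 CPM in CD95L cells, against 12.6 and 9.34 CPM in vector cells, a difference of 0.09 ± 0.26 (SE, limma, adjusted p = 0.98). Its exons share 348 bases with POLR1C on the opposite strand, a gene at 6.25 and 7.60 CPM in CD95L cells and 6.66 and 6.84 CPM in vector cells. DICER1 (chr14:95086228-95158010, minus strand), the cytoplasmic RNase III, had 9.52 and 10.8 CPM in CD95L cells, against 14.2 and 11.1 CPM in vector cells. The groups did not overlap, but the second replicates of CD95L and vector cells lay close together (242 and 280 reads, intervals 9.45 to 12.2 and 9.86 to 12.5 CPM). The difference of -0.29 ± 0.25 (SE, interval -0.84 to 0.27) did not pass the test (limma, adjusted p = 0.936), and without vector replicate 1 it was -0.12. The antisense gene DICER1-AS1, which shares 80 exon bases with DICER1 on the other strand, stood at 31.2 and 32.9 CPM in CD95L cells and at 36.9 and 30.6 CPM in vector cells. Whether the counting used strand is not given in the sources used here, so reads in such stretches cannot be placed with certainty.

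The Dicer partners had the fewest reads of the 10 genes when the 4 libraries were summed. TARBP2 (chr12:53500921-53506431, plus strand), the gene of TRBP, had 2.66 and 4.62 CPM in CD95L cells, against 4.46 and 5.56 CPM in vector cells. CD95L replicate 1, with 61 reads, was the low library (interval 2.04 to 3.42 CPM), while CD95L replicate 2 lay between the vector libraries. The difference of -0.40 ± 0.28 (SE) did not pass the test (limma, adjusted p = 0.931), was -0.09 without CD95L replicate 1 and was -0.71 without CD95L replicate 2. PRKRA (chr2:178431292-178451512, minus strand), the gene of PACT, had 5.46 and 6.58 CPM in CD95L cells, against 5.10 and 5.68 CPM in vector cells. PRKRA shares 1068 exon bases with CHROMR and TARBP2 shares 541 with an unnamed lncRNA, all on the opposite strand, as do DGCR8 (526 bases) and AGO1 (396 bases). The counting intervals of PRKRA overlapped within and between the groups, and its difference was 0.13 ± 0.25 (SE, limma, adjusted p = 0.97). In these bulk libraries less RNA per cell and fewer cells that hold the RNA cannot be told apart, for these and for all other genes.

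**Figure D2:**
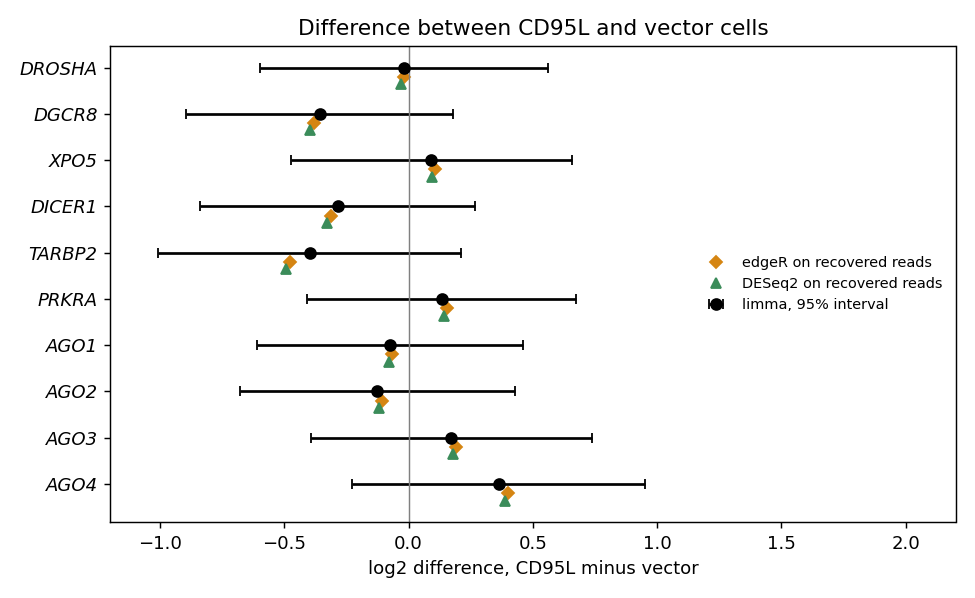
Log2 difference between CD95L and vector cells (CD95L minus vector, horizontal axis) for each gene, with the limma estimate and its 95% interval in black and the estimates of edgeR and DESeq2 on recovered reads as diamonds and triangles. Every interval includes 0, the lowest estimate by limma is that of TARBP2 (-0.40) and the highest that of AGO4 (0.36).

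AGO2 gave the most reads of the 10 genes in every library. AGO2 (chr8:140520156-140635633, minus strand), the slicing Argonaute, had 40.2 and 32.6 CPM in CD95L cells, against 42.7 and 36.6 CPM in vector cells. The groups overlapped, and the difference was -0.13 ± 0.25 (SE, interval -0.68 to 0.43, limma, adjusted p = 0.97). With 733 to 1065 reads per library its counting error was the smallest, yet its replicates lay outside each other's counting intervals in both groups. By the distance between centred log2(CPM + 1) values over the 4 libraries, the 3 genes most like AGO2 among 1511 tested genes of similar mean CPM were ZNF121 (distance 0.039), ODC1 (0.0425) and MAF (0.0513). Each of them was highest in vector replicate 1 and lowest in CD95L replicate 2, as AGO2 was, and 4 points allow no more than this description.

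AGO1, AGO3 and AGO4 lie side by side on chromosome 1. AGO1 (chr1:35869808-35930532, plus strand) had replicates whose counting intervals overlapped in both groups, with 7.90 and 6.76 CPM in CD95L cells, against 7.79 and 7.71 CPM in vector cells (difference -0.07 ± 0.24, SE, limma, adjusted p = 0.981). AGO3 (chr1:35930718-36072500, plus strand) had 6.33 and 6.71 CPM in CD95L cells, against 6.78 and 4.73 CPM in vector cells, with vector replicate 2 as the low library (difference 0.17 ± 0.26, SE, limma, adjusted p = 0.965). AGO3 also shared the most sequence with transcripts of other genes. Of the 20-base words of its MANE Select transcript 13.6% occur in them, most of all in Metazoa_SRP, the name for copies of the signal recognition particle RNA. For the other genes this share was 0 (TARBP2) to 3.96% (AGO4). Copies outside annotated transcripts or on the opposite strand were not searched, so these shares do not rank how certain the reads are. Between the members themselves only the Argonautes shared words, from 0.0892% of those of AGO2 to 2.27% of those of AGO3.

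AGO4 (chr1:35808016-35857890, plus strand) was the gene with the highest positive difference, and it rested on 1 library. AGO4 had 16.2 and 24.4 CPM in CD95L cells, against 16.1 and 14.5 CPM in vector cells. CD95L replicate 2 (549 reads, interval 22.4 to 26.5 CPM) stood above the other 3 libraries, whose intervals overlapped with each other (14.6 to 18.0 CPM for CD95L replicate 1, 14.6 to 17.7 and 13.1 to 16.1 CPM for the vector libraries). The difference of 0.36 ± 0.27 (SE, interval -0.23 to 0.95) did not pass the test (limma, adjusted p = 0.932; edgeR, adjusted p = 0.884; DESeq2, adjusted p = 0.999), was 0.08 without CD95L replicate 2 and 0.64 without CD95L replicate 1. The 1.503-fold gap between the CD95L libraries was not rare, as 15.1% of the 3865 tested genes with a mean CPM within 2-fold of that of AGO4 had a gap at least as large. The summed markers of fibroblasts, leukocytes and endothelium were each also highest in CD95L replicate 2, those of endothelium through VWF (61.3 CPM there). PECAM1, another endothelial marker, was not (1.96 CPM there, 3.13 CPM in vector replicate 1). The part of such markers in the AGO4 value was not tested.

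The 4 Argonaute genes together gave 70.7 and 70.5 CPM in CD95L cells, against 73.4 and 63.6 CPM in vector cells. The other 6 genes summed to 51.5 and 57.9 CPM in CD95L cells, against 65.9 and 56.0 CPM in vector cells, and the groups overlapped in both sums. Within the Argonaute reads AGO2 made up 56.9% (54.4 to 59.3%, exact 95% binomial interval) and 46.2% (43.8 to 48.7%) in CD95L cells, against 58.2% (55.9 to 60.5%) and 57.6% (55.2 to 60.1%) in vector cells. AGO4 made up 22.99% (21.0 to 25.1%) and 34.6% (32.3 to 37.0%) in CD95L cells, against 21.9% (20.05 to 23.9%) and 22.8% (20.8 to 24.9%) in vector cells. CD95L replicate 1 thus had the makeup of the vector libraries, and CD95L replicate 2 held a larger AGO4 and a smaller AGO2 share than the other 3. AGO1 (9.59 to 12.1%) and AGO3 (7.44 to 9.53%) took similar shares in the 4 libraries. These are shares of reads and are not corrected for transcript length.

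**Figure D3:**
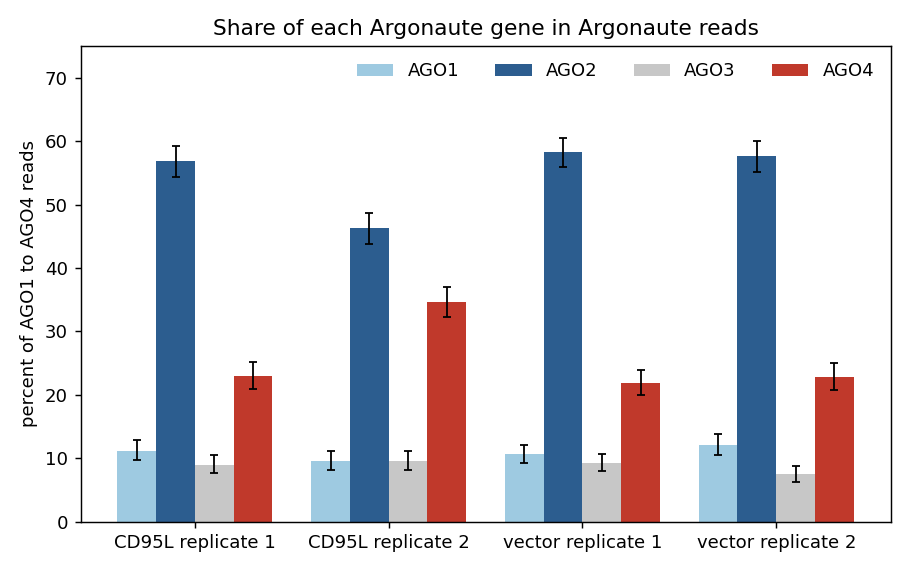
Percent of the reads of AGO1 to AGO4 together that came from each of these genes (vertical axis, starting at 0), for the CD95L libraries and then the vector libraries; bars on the columns are exact 95% binomial intervals. CD95L replicate 2 differs from the other libraries by its AGO4 share of 34.6% and its AGO2 share of 46.2%.

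Levels of different genes were compared per length, as CPM per kb of the MANE Select transcript in GENCODE v44. On this scale the genes fell into a group of 7 near 2 to 3 CPM per kb and 3 lower ones, given here in the order of their means over the 4 libraries. PRKRA had 3.40 ± 0.448 CPM per kb in CD95L cells and 3.05 ± 0.234 CPM per kb in vector cells (SD over 2 libraries). DGCR8 had 2.53 ± 0.0530 and 3.31 ± 0.343 CPM per kb in CD95L and vector cells, and TARBP2 had 2.41 ± 0.918 and 3.32 ± 0.519. The order within the upper group differed between the groups of cells, with AGO4 second in CD95L cells and TARBP2 first in vector cells. AGO2 (2.49 ± 0.367 and 2.72 ± 0.296 CPM per kb), which had the most reads, has a transcript of 14595 bases and overlapped with PRKRA, DGCR8 and TARBP2 on the per-length scale. AGO4 (2.80 ± 0.794 and 2.10 ± 0.155 CPM per kb), DROSHA (2.19 ± 0.448 and 2.21 ± 0.412) and XPO5 (2.19 ± 0.236 and 2.06 ± 0.428) completed the upper group. Neighbours in this order overlapped between libraries down to XPO5. DICER1, at 0.977 ± 0.0845 CPM per kb in CD95L cells and 1.22 ± 0.207 in vector cells, lay below XPO5 in every library (highest DICER1 library 1.36, lowest XPO5 library 1.75). AGO1 (0.535 ± 0.0591 and 0.565 ± 0.00396 CPM per kb in CD95L and vector cells) lay below DICER1 in every library, and AGO3 (0.332 ± 0.0137 and 0.293 ± 0.0739) below AGO1. The order depends on the length used, since the gene models of the counting are not given in the sources used here. With all exons of a gene merged, AGO2 and AGO4 came first (mean over the 4 libraries of 2.40 CPM per kb each), and PRKRA stood at 0.473, next to DICER1 (0.514) and AGO1 (0.537).

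Most of the genes lay above most olfactory receptor genes. Olfactory receptors, the odour sensors of nasal neurons, were added as a comparison set after the data had been seen, and 357 of their symbols had a MANE Select transcript. Whether these cells express some of them was not tested, so the set is not a proven silent background. Their median was 0.0493 CPM per kb and their upper decile began at 0.380 CPM per kb, although the highest of them reached 21.6. PRKRA, DGCR8, TARBP2, AGO2, AGO4 and DROSHA were each above 98.0% of the olfactory receptors, XPO5 above 97.8% and DICER1 above 96.1%. AGO1 was above 93.0% and AGO3 above 88.0%, with 25 and 43 olfactory receptors at or above them. The PIWI genes, relatives of the Argonautes known from the germline, were in the same range as AGO1 and AGO3, with PIWIL2 at 0.699 ± 0.192 CPM per kb in CD95L cells and 0.554 ± 0.184 CPM per kb in vector cells (SD over 2 libraries), and PIWIL1 at 0.221 ± 0.107 and 0.169 ± 0.0350. Among all 17854 protein coding genes with a MANE Select transcript, with a median of 0.986 CPM per kb, PRKRA was above 82.5% and AGO3 above 25.1%. These ranks hold for the MANE Select length only. With all exons merged, the means of PRKRA (0.473 CPM per kb) and DICER1 (0.514) lay below that of PIWIL2 (0.558).

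**Figure D4:**
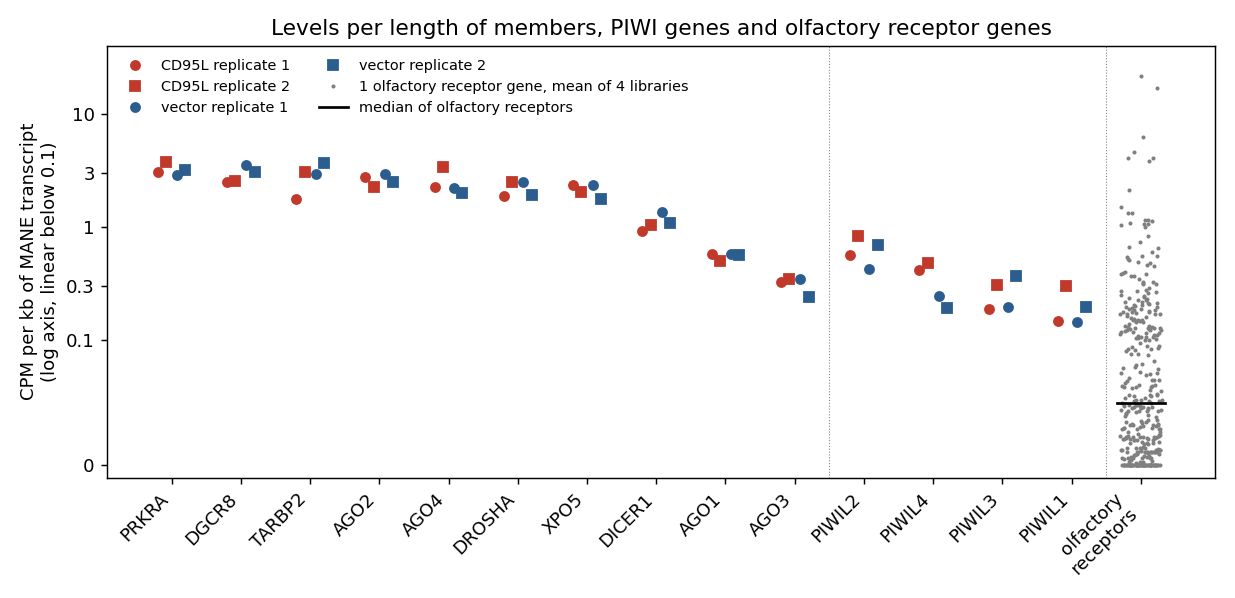
CPM per kb of MANE Select transcript (vertical axis, logarithmic above 0.1 and linear below) for the 10 genes, the 4 PIWI genes and 357 olfactory receptor genes; red points are CD95L libraries and blue points vector libraries, and each grey dot is the mean of an olfactory receptor gene over the 4 libraries, with their median (0.0493) as a bar. On this length scale AGO1 and AGO3 lie beside the PIWI genes, the other 8 genes above them.

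No gene of the wider miRNA pathway passed the test either. Of 60 further pathway genes 56 could be tested, 27 with a positive and 29 with a negative difference (median -0.03), and limma called 0 of them higher and 0 lower, with 1 at an unadjusted p under 0.05 (5.38% of all genes). edgeR called 0 of 59, with 2 at an unadjusted p under 0.05 (6.13% of all genes), and DESeq2 called 0 of 59, with 1 of 60 at an unadjusted p under 0.05 (3.65% of all genes). Both CD95L libraries were above both vector libraries in 7 of the 56 (16.0% of all genes tested) and below them in 15 (19.0% of all genes tested). Several differences named below moved by more than 1.5 times without 1 library, and the value of these without it is given beside them.

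Among 14 cofactors of the Microprocessor, 10 had a negative difference (median -0.13), as did 8190 of all 16127 genes tested. The helicase gene DDX5 was the most abundant, with 72.2 and 67.9 CPM in CD95L cells, against 77.7 and 75.3 CPM in vector cells. SRRT, the gene of ARS2, a partner of the nuclear cap-binding complex, had the lowest difference, with 11.7 and 17.3 CPM in CD95L cells, against 25.6 and 19.4 CPM in vector cells (-0.61 ± 0.28, SE, limma, adjusted p = 0.923, unadjusted p = 0.048 before adjustment over all genes). Its groups did not overlap, and it was -0.35 without CD95L replicate 1 or -0.88 without CD95L replicate 2. ILF2, which encodes the RNA binding protein NF45, had the highest difference, with 10.2 and 8.27 CPM in CD95L cells, against 7.47 and 7.51 CPM in vector cells (0.26 ± 0.25, SE, limma, adjusted p = 0.944; 0.13 without CD95L replicate 1 and 0.40 without CD95L replicate 2).

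Of 11 tested genes of export, tailing and decay 9 had a positive difference (median 0.21), as did 7937 of all 16127 genes tested. PARN, a deadenylase, was the most abundant, with 72.8 and 128 CPM in CD95L cells, against 93.6 and 88.3 CPM in vector cells, and as with AGO4 it was CD95L replicate 2 that stood above the rest. LIN28A, which blocks maturation of let-7, was near the filter (1.18 and 2.62 CPM in CD95L cells, 1.32 and 0.676 CPM in vector cells) with the highest difference (0.51 ± 0.30, SE, limma, adjusted p = 0.923). Leaving out CD95L replicate 2 gave 0.14, and leaving out CD95L replicate 1 gave 0.88, while 0.27 was found without vector replicate 2. TSN, the gene of translin, had the lowest, with 6.03 and 6.09 CPM in CD95L cells, against 6.46 and 8.19 CPM in vector cells (-0.23 ± 0.25, SE, limma, adjusted p = 0.952). Leaving out vector replicate 2 gave -0.08, and leaving out vector replicate 1 gave -0.38.

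The 7 chaperone genes of Argonaute loading had a median of -0.15. HSPA8, the HSC70 gene, stood at 223 and 204 CPM in CD95L cells, against 199.6 and 208 CPM in vector cells. STIP1, the gene of the cochaperone HOP, had the highest difference of these (39.5 and 39.6 CPM in CD95L cells, 38.2 and 35.7 CPM in vector cells), and PTGES3, the gene of p23, the lowest (40.01 and 30.3 CPM in CD95L cells, 43.2 and 38.7 CPM in vector cells). The difference of STIP1 was 0.09, with 0.05 when vector replicate 2 was left out and 0.14 when it was vector replicate 1. That of PTGES3 was -0.23, with -0.03 when CD95L replicate 2 was left out, -0.15 when it was vector replicate 1 and -0.42 when it was CD95L replicate 1. The 22 tested silencing effectors, which act downstream of Argonaute, had a median of -0.06. PABPC1, a poly(A) binding protein, had 227 and 183 CPM in CD95L cells, against 238 and 209.8 CPM in vector cells. EIF4ENIF1, which binds the cap-binding protein eIF4E, had the highest difference (5.11 and 6.40 CPM in CD95L cells, 4.25 and 3.74 CPM in vector cells, 0.43 ± 0.25, SE, limma, adjusted p = 0.923). PAN2, a deadenylase subunit, had the lowest (2.10 and 3.16 CPM in CD95L cells, 4.94 and 3.82 CPM in vector cells, -0.58 ± 0.26, SE, limma, adjusted p = 0.923; -0.36 without CD95L replicate 1). Among the 2 tested PIWI genes, PIWIL4 had 1.31 and 1.51 CPM in CD95L cells, against 0.763 and 0.596 CPM in vector cells (0.52 ± 0.24, SE, limma, adjusted p = 0.923), and PIWIL2 had 2.88 and 4.27 CPM in CD95L cells, against 2.17 and 3.50 CPM in vector cells. The PIWIL2 difference of 0.26 was 0.0082 without vector replicate 1, 0.04 without CD95L replicate 2, 0.48 without CD95L replicate 1 and 0.51 without vector replicate 2.

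**Figure D5:**
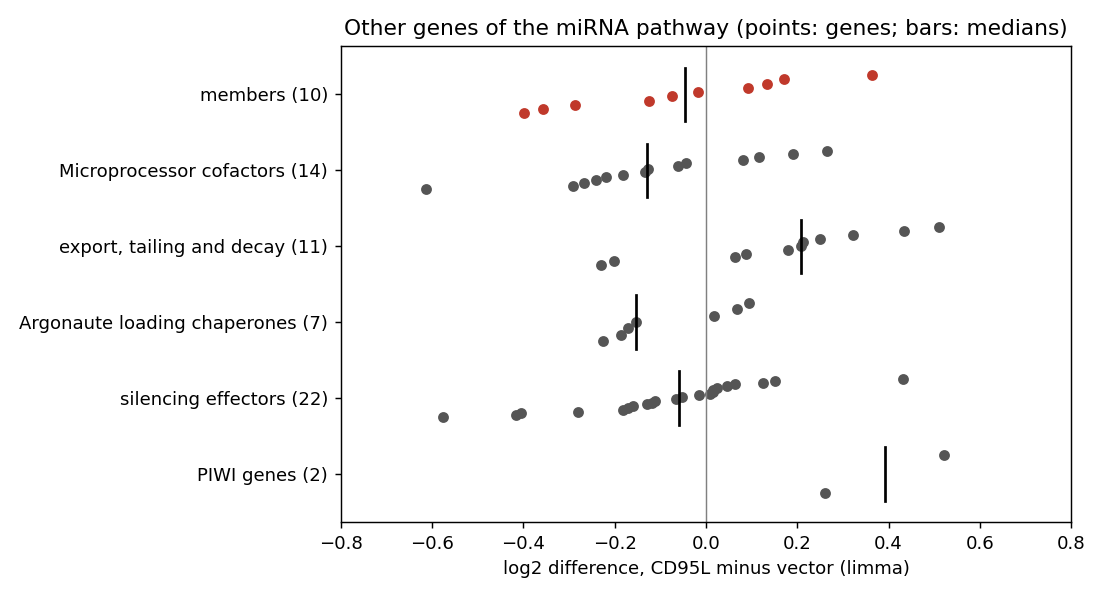
Log2 difference between CD95L and vector cells (CD95L minus vector, limma, horizontal axis) for the 10 members in red and for the tested genes of 5 pathway lists in grey, with the number of genes in parentheses and the median of each list as a bar. The medians run from -0.15 (chaperones) to 0.39 (2 PIWI genes), and no gene shown passed the test.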

How the data were processed

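Total RNA was prepared with the miRNeasy kit and sequenced as Illumina small RNA libraries. The authors trimmed the reads with TrimGalore, aligned them to hg38 with TopHat (Bowtie2 is also named in the submitters' processing notes) and counted reads per gene with HTSeq. For tool versions and gene models the sources used here give nothing. The authors deposited CPM per library, summing to 1000000, beside their own edgeR comparison (average log2 CPM, log2 fold change, p-values), which was not used. Dividing each value by that of 1 read gave whole reads for 100% of values, within 0.01 of a read, and hence the read totals.

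A count test had been planned for counts, and the deposited unit was CPM. The main test was therefore limma 3.58.1 (R 4.3.3) on log2(CPM + 1), without a variance trend, with group as the only term, for genes averaging 1 CPM or more. Tests were two-sided, with Benjamini-Hochberg adjustment across the genes tested and a threshold of 0.05. As alternatives the recovered reads were tested with DESeq2 1.42.0 and with the quasi-likelihood test of edgeR 4.0.16 after TMM scaling. The code was tested on simulated data. Gene positions and lengths are from GENCODE v44 (GRCh38, the assembly of hg38). Words of 20 bases were matched exactly, on the transcript strand, against all GENCODE transcripts of other genes. Intervals and figures used scipy 1.17.1 and matplotlib 3.10.9 under Python 3.11.15.

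Beside the 10 genes, the text names from each pathway list the gene with the highest mean CPM and those with the highest and lowest difference, FASLG, the DGCR8 hairpins, the 3 genes most like the most abundant member, overlapping genes, marker genes and MIR27B. The members and lists were chosen with earlier results of these data known.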

Additional observations from a re-analysis of the deposited data

How the results depend on the processing

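In limma with other library scalings, a variance trend, a pseudocount of 0.1, no filter, a mean of at least 5 CPM (where TARBP2 is not tested) or the replicate block, and in edgeR and DESeq2, 0 of the 10 genes and 0 of the further pathway genes passed the threshold. The count was also 0 without each library in turn, but there a group holds 1 library that is assumed to vary like the other group, so that these fits say little about stability. At an unadjusted p under 0.05 there was at most 1 of the 10 genes (limma without CD95L replicate 1 or 2) and there were at most 3 further pathway genes. Over all genes the count of calls (1) was 31 with DESeq2 size factors, 30 with TMM factors, 29 with a trend, 72 with edgeR, 50 with DESeq2, 80 with the replicate block and 5 to 83 without 1 library. It was 0 with a pseudocount of 0.1 (limma, 873 genes at an unadjusted p under 0.05) and 0 with no filter (1250 genes), where FASLG also lost its call (adjusted p = 0.139 and 0.257). Same-numbered libraries did not deviate together (correlation -0.00198 over 16127 genes). With 2 libraries per group this cannot show whether they shared a preparation step.

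Without 1 library the direction turned for 5 genes of low difference, with ranges of -0.21 to 0.18 (DROSHA), -0.10 to 0.29 (XPO5), -0.17 to 0.03 (AGO1, 0.026 without CD95L replicate 2), -0.27 to 0.02 (AGO2, 0.021 without CD95L replicate 2) and -0.05 to 0.39 (AGO3, -0.049 without vector replicate 2), and also for PABPC1 (-0.28 to 0.03, 0.026 without CD95L replicate 2) and PARN (-0.32 to 0.49). DGCR8 (-0.46 to -0.26), DICER1 (-0.45 to -0.12), TARBP2 (-0.71 to -0.09), PRKRA (0.02 to 0.25) and AGO4 (0.08 to 0.64) kept their direction. The median over the members was 0.02 if CD95L replicate 2 or vector replicate 1 was left out, and -0.15 without vector replicate 2. Without either CD95L library PIWIL4 fell under the filter. No other setting turned the direction of any member. With 61 to 140 reads TARBP2 was the most limited by depth.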
